A study of Danio rerio with 6 samples.

Results

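The genes described are those of the proteasome, found by their gene names: every row of the count table whose name begins with psma, psmb, psmc, psmd, psme, psmf or psmg followed by a digit. This gave 50 of the 27456 genes in the table. Of these, 48 encode proteasome subunits, activators, an inhibitor or assembly chaperones, and 2 (PSMC3IP and PSME3IP1) encode proteins named for binding a subunit and were kept apart. The 48 genes comprise 21 of the 20S core particle (9 alpha and 12 beta subunit genes), 20 of the 19S cap (7 ATPase and 13 non-ATPase genes) and 7 regulators. A further 9 gene identifiers carry such a name in the name table without a line in the count table and were not analysed here. No row of the count table carried the name PSMA1, PSMD2 or PSMD7, so the core and cap described are not complete. A total of 43 of the 48 genes passed the filter on low counts: 16 core, 20 cap and 7 regulator genes. The 5 that did not were psma6l, PSMB8, PSMB9, psmb12 and psmb13a, whose counts are given below. Gene names are spelled as in the name table, which writes many zebrafish genes in capitals.

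The proteasome is the protease that degrades most ubiquitin-tagged proteins in the cytosol and nucleus. Its core particle is a barrel of stacked rings: the outer rings of alpha subunits gate the entrance, and the inner rings of beta subunits hold the proteolytic sites. The cap docks on the alpha ring, recognizes ubiquitin chains, removes them, and unfolds the protein with a ring of ATPases that feed it into the barrel. Other activators can take the place of the cap, and in immune cells and after interferon the catalytic beta subunits are replaced by immunoproteasome forms. Because the subunits work in fixed proportions, their genes are often transcribed together, in mammals under the transcription factor NFE2L1, which is itself degraded by the proteasome.

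Total RNA was sequenced from cells sorted from zebrafish (Danio rerio) embryos of the line tg(myl7::gfp), whose green fluorescent protein is under the promoter of myl7, a heart myosin light chain gene. Both groups carry this transgene and were taken at 24 hours post fertilization (hpf): 3 libraries from Gata4 morphants and 3 from wildtype. The morphants had received 2 nl of a 0.7 mM morpholino against Gata4, a transcription factor of heart development, before the 4-cell stage. The labels print its sequence, shown to identify the reagent:
Gata4 morpholino: tccacaggtgagcgattattgcttc
The labels do not say whether wildtype embryos received a control oligomer. Batches of about 200 embryos were pooled before sorting, and the labels leave unstated whether each replicate had a clutch of its own, so the p-values cover the spread of these samples alone, possibly a technical one. A gene's level in such bulk samples depends both on how many cells of a type were sorted and on the RNA in each cell, and these cannot be told apart. No value is given for gata4 itself, which was not analysed here.

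The libraries held 12574486, 37906530 and 16779626 counts in morphant replicates 1, 2 and 3, against 15302189, 21119399 and 19009161 counts in wildtype replicates 1, 2 and 3; values below keep this order. An mRNA-Seq kit was used for morphant replicate 1 and wildtype replicates 1 and 2, and a TruSeq kit for the other libraries. The proteasome genes took 0.609, 0.445 and 0.629% of all counts in morphants, against 0.446, 0.481 and 0.427% in wildtype. Levels are given in CPM, in which counts are brought to the same library total with TMM factors. This scaling bears on every direction below: over all 18033 genes tested the median log2 fold change was 0.07 with TMM factors and 0.46 with library totals alone. Marker genes of several cell types were not at the same level in both groups. The summed level of 15 cardiomyocyte genes was 1889.8, 2033 and 2017 CPM in morphant libraries, against 7034, 4089 and 3583 CPM in wildtype libraries, and the groups did not overlap. The summed level of 7 leukocyte genes was 658, 7483 and 1473 CPM in morphant libraries, against 4295, 6592 and 8498 CPM in wildtype libraries. Morphant replicate 2 thus stood among the wildtype libraries in leukocyte genes and apart from the other morphants. Median log2 fold changes over the tested markers were -1.04 for cardiomyocytes and -2.03 for leukocytes. For markers of other cells they were 1.66 for skeletal muscle, 1.33 for neural, 1.30 for epidermal and 2.80 for endoderm and liver genes, and -0.14 for erythroid and -0.07 for endothelial genes. Endoderm and liver genes summed to 6021, 18.2 and 47.7 CPM in morphants and 24.7, 85.5 and 18.6 CPM in wildtype. This sum was high in morphant replicate 1 alone, where apobb.1 held 5640 CPM of it. FABP2 and FGB were also high in that library alone. FOXA2 and foxa3 were higher in morphant replicates 1 and 3 than in any wildtype library, and PROX1 overlapped between groups. Epidermal genes summed to 11929, 1023 and 3001 CPM in morphants and 1475, 2201 and 2169 CPM in wildtype. For skeletal muscle the sums were 1877, 756 and 2383 CPM in morphants and 1517, 1152 and 1314 CPM in wildtype. Neural sums were 870, 396 and 712 CPM in morphants and 379, 259 and 314 CPM in wildtype. None of the matched markers was at 0 in all libraries, and the part of such cells in the values below was not tested.

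With TMM factors the proteasome genes as a group were at about the same level in both groups of libraries. Their summed level was 4756, 4849 and 5504 CPM in morphant libraries, against 4479, 5361 and 5203 CPM in wildtype libraries, or 5036 ± 408 CPM in morphants and 5014 ± 470.4 CPM in wildtype (SD, n = 3 each). The groups overlapped: the highest sum was that of morphant replicate 3 and the lowest that of wildtype replicate 1. With library totals alone the sums were 6088, 4447 and 6295 CPM in morphant libraries, against 4460, 4806 and 4272 CPM in wildtype libraries. Their mean was then 5610 ± 1012 CPM in morphants and 4513 ± 271 CPM in wildtype. Morphant replicates 1 and 3 were above every wildtype library on that scale, and replicate 2 was not. Of the 43 genes tested, 0 passed an adjusted p of 0.05 in edgeR's quasi-likelihood test with Benjamini-Hochberg adjustment, and of all genes 0 of 18033 passed (0%). At an unadjusted p under 0.05, 0 of the 43 passed, against 12.5% of all genes (7.62% higher and 4.92% lower). Limma-voom called 0 of the 43 and 0 of all 18033 genes. DESeq2 called 0 of the 42 to which it gave an adjusted p (PSME1 had none), while it called 281 of 18033 genes (1.56%). Without morphant replicate 2, edgeR called 3745 of 19034 genes (19.7%) and still 0 proteasome genes. In the authors' deposited table of 27456 genes, 703 had an adjusted p under 0.05, of which 0 were proteasome genes. That share of all genes is small, so a count of 0 among so few genes says little.

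**Figure D1:**
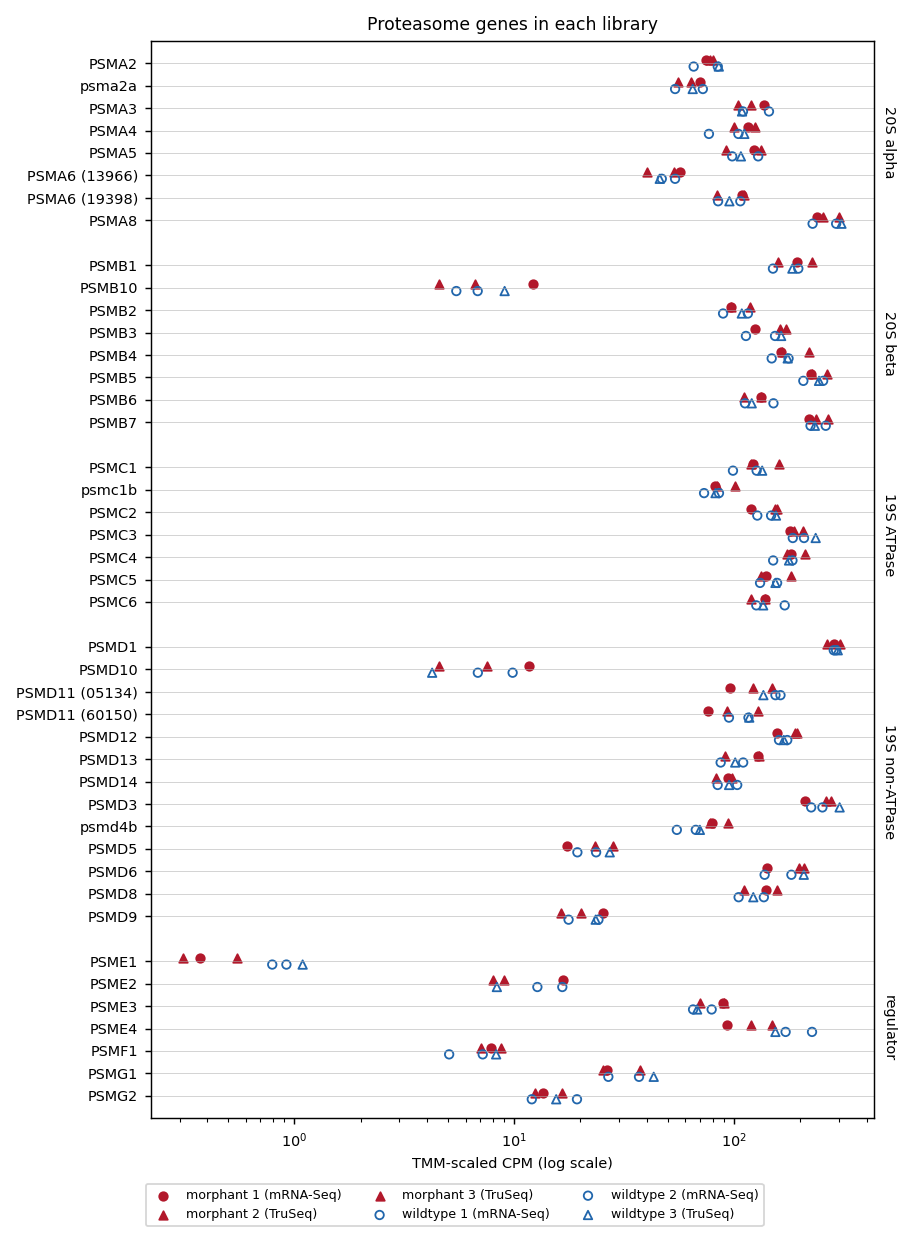
The TMM-scaled CPM of the 43 tested proteasome genes is plotted on a log axis, 1 row a gene and 1 symbol a library (filled, Gata4 morphant; open, wildtype; circles, mRNA-Seq kit; triangles, TruSeq kit). Most genes sit between 40 and 310 CPM with both groups intermixed. The groups are separate in PSME1 and PSME4, lower in morphants, and in psmd4b, higher in morphants.

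With TMM factors the differences were also small gene by gene. The median log2 fold change of morphant over wildtype was -0.01 over the 43 genes, with 21 above 0 and 22 below, against 0.07 over all genes tested, of which 46.5% were below 0. Over the 3986 genes with a mean of 40 to 310 CPM the median was -0.29, and 65.8% were below 0. With library totals alone the proteasome median was 0.39, with 41 of 43 above 0. The proteasome median minus the all-gene median was -0.08 with TMM factors and -0.07 with totals alone. In the fit with TMM factors, 34 of the 43 genes (79.1%) had a log2 fold change between -0.25 and 0.25. So did 22.7% of all genes and 27.0% of the 3986 genes with a mean of 40 to 310 CPM. By class this held for 16 of 16 core genes, 7 of 7 ATPase genes, 8 of 13 non-ATPase genes and 3 of 7 regulators. These counts depend on the scaling. With library totals alone the medians were 0.44 for core, 0.39 for ATPase and 0.36 for non-ATPase genes, each above 0.25. That of the regulators was then 0.23 and that of all genes 0.46. The precision of the fit with TMM factors also limits the reading of small differences. The 95% interval of a proteasome gene reached 0.71 log2 units to either side at the median. A difference smaller than that in a single gene was therefore not detectable even before adjustment of the p-values. After adjustment, far larger differences were not called either. PDIA4, a gene of the endoplasmic reticulum described below, had a log2 fold change of -1.93 at an adjusted p in edgeR of 0.393.

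**Figure D2:**
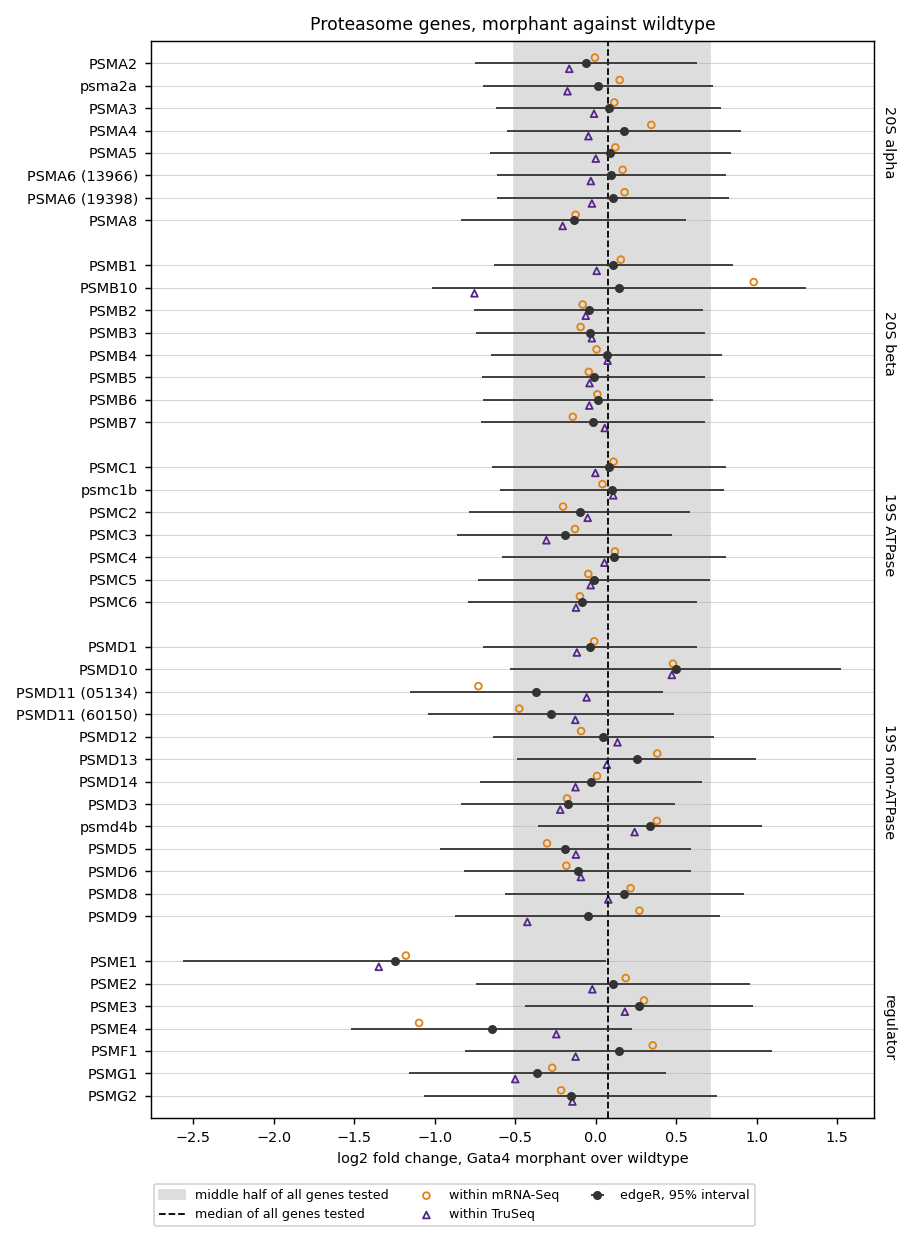
The log2 fold change of Gata4 morphant over wildtype is plotted for each tested proteasome gene with a 95% interval derived from the edgeR test (filled points and bars). Open circles and triangles give the value within the mRNA-Seq and the TruSeq kit. The band spans the interquartile range of all genes tested, with a dashed line at their median of 0.07. Core and ATPase genes lie close to that line, while PSME1 and PSME4 lie furthest below it.

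Among the alpha subunits, which form the outer rings and the gate, the summed level was 923, 808 and 983 CPM in morphant libraries, against 763, 985 and 926 CPM in wildtype libraries. The 8 tested genes had a median log2 fold change of 0.08 (6 above 0 and 2 below). PSMA4, with the smallest p of the class, had 115, 99.7 and 124 CPM in morphant libraries, against 76.8, 105 and 111 CPM in wildtype libraries. Wildtype replicate 1 was the lowest of the 6 and the other libraries overlapped, with a log2 fold change of 0.18 (SE 0.31). PSMA8, the subunit that RefSeq lists under the synonym psma7, had 238, 253 and 301 CPM in morphant libraries, against 227, 291 and 308 CPM in wildtype libraries. The groups overlapped, at a log2 fold change of -0.14 (SE 0.29), the lowest of the core. Of 2 genes named PSMA6, PSMA6 (ENSDARG00000019398) had 108, 83.4 and 111 CPM in morphants and 84.5, 107 and 95.1 CPM in wildtype, and PSMA6 (ENSDARG00000013966) had 56.5, 40.2 and 53.2 CPM in morphants and 46.9, 53.9 and 45.9 CPM in wildtype. In both, morphant replicate 2 was the lowest library and the groups overlapped, at log2 fold changes of 0.11 and 0.10 (SE 0.30 and 0.30). Another such gene, psma6l, was near the limit of detection, with 8, 14 and 12 counts in morphants and 1, 8 and 2 in wildtype. The 4 other tested alpha genes, PSMA2, psma2a, PSMA3 and PSMA5, had log2 fold changes between -0.06 and 0.09.

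The beta subunits form the inner rings. Their summed level was 1165, 1161 and 1405 CPM in morphant libraries, against 1047, 1314 and 1236 CPM in wildtype libraries, and their 8 tested genes had a median log2 fold change of -0.00099. The 3 constitutive catalytic subunits, which carry the cutting sites, were among the flattest genes with TMM factors. PSMB5, the chymotrypsin-like subunit, had 223, 227 and 265 CPM in morphant libraries, against 206, 254 and 243 CPM in wildtype libraries, a log2 fold change of -0.01 (SE 0.29). PSMB6, the caspase-like subunit, had 132, 111 and 132 CPM in morphant libraries, against 112, 151 and 120.2 CPM in wildtype libraries, a log2 fold change of 0.01 (SE 0.30). PSMB7, the trypsin-like subunit, had 219, 235 and 267 CPM in morphant libraries, against 223, 261 and 233 CPM in wildtype libraries, a log2 fold change of -0.02 (SE 0.29). In all 3 the groups overlapped and the sign turned under at least 1 other setting, as given in the closing section. Of the structural beta subunits, PSMB1 had 193, 159 and 226 CPM in morphants and 150.1, 196 and 184 CPM in wildtype (log2 fold change 0.11, SE 0.31). PSMB4 had 163, 165 and 218 CPM in morphants and 148, 177 and 175 CPM in wildtype (log2 fold change 0.07, SE 0.30). PSMB2 had 96.7, 97.3 and 118 CPM in morphants and 89.1, 116 and 108 CPM in wildtype (log2 fold change -0.04, SE 0.30). Wildtype replicate 1 was the lowest library in each, and morphant replicate 3 the highest. PSMB3 followed with a log2 fold change of -0.03.

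The immunoproteasome subunits take the catalytic places in immune cells and shape the peptides presented on MHC class I. Apart from PSMB10, described below, their genes had almost no counts. PSMB8, the immune form of the PSMB5 position, had 0, 1 and 0 counts in morphants and 0, 0 and 0 in wildtype. The wildtype sum of 0 of 55430749 counts allows up to 0.0541 CPM of the unscaled total (3 counts), and the morphant sum of 1 count has a 95% exact Poisson interval of 0.000376 to 0.0828 CPM, limits that cover counting error only. PSMB9, the immune form of the PSMB6 position, had 5, 3 and 3 counts in morphants and 0, 1 and 0 in wildtype. That is 0.164 CPM (interval 0.0816 to 0.293) over the morphant libraries and 0.0180 CPM (0.000457 to 0.101) over the wildtype libraries. These intervals overlapped at their ends, which does not show that the groups were alike. Every morphant library held more of these few counts than every wildtype library, and the filtered fit with all 6 libraries did not test the difference. The zebrafish genes psmb12 and psmb13a, further variants of catalytic subunits, were as low. For psmb12 there were 4, 0 and 4 counts in morphants, against 0, 0 and 0 in wildtype. For psmb13a there were 0, 0 and 0 in morphants, against 1, 0 and 0 in wildtype. In RefSeq's annotation of the assembly GRCz12tu, psmb8a, psmb13a, psmb12 and psmb9a follow one another on chromosome 19, next to the peptide transporter gene tap2a. These 4 genes were below the filter and have no fold change or test in the filtered fit with all 6 libraries. The fit with no filter took in all 48 proteasome genes and called 0 of them, and 44 of all 27456 genes.

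PSMB10, the immune form of the PSMB7 position, was the exception in level. It had 12.1, 4.55 and 6.62 CPM in morphant libraries, against 5.45, 6.81 and 9.03 CPM in wildtype libraries, and its counts were 195, 158 and 127 in morphants and 83, 129 and 141 in wildtype. Morphant replicate 1 was the highest library and morphant replicate 2 the lowest, so the groups overlapped. The log2 fold change was 0.14 (SE 0.49), but 0.98 within the mRNA-Seq libraries and -0.75 within the TruSeq libraries. The leukocyte sum given above was lowest in morphant replicate 1 and in morphant replicate 2 was exceeded by wildtype replicate 3 alone. The part of leukocytes in the values of PSMB10 was not tested. Per length, PSMB7 exceeded PSMB10 by a ratio of RPKM of 7.94 ± 3.70 in morphants and 7.54 ± 1.73 in wildtype (SD, n = 3 each). The size of this ratio depends on the length taken for each gene, which was not checked here. This ratio was lowest in morphant replicate 1 at 3.91 and highest in morphant replicate 2 at 11.2.

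The ATPases of the cap form the ring that unfolds substrates and opens the gate. Their summed level was 961, 989 and 1132 CPM in morphant libraries, against 892, 1078 and 1074 CPM in wildtype libraries, and the 7 genes had log2 fold changes between -0.19 and 0.11, with a median of -0.01. PSMC3, with the smallest p of the class, had 179, 207 and 186 CPM in morphant libraries, against 185, 208 and 235 CPM in wildtype libraries (log2 fold change -0.19, SE 0.28). Wildtype replicate 3 was the highest library, and the others overlapped. PSMC4 had 182, 174 and 209 CPM in morphants and 150.5, 184 and 178 CPM in wildtype (log2 fold change 0.11, SE 0.29). PSMC2 had 119, 153 and 157 CPM in morphants and 127, 147 and 155 CPM in wildtype (log2 fold change -0.10, SE 0.29). The paralogue psmc1b had 81.4, 83.7 and 101 CPM in morphants and 73.0, 85.3 and 82.3 CPM in wildtype (log2 fold change 0.10, SE 0.29). The groups overlapped in all 4. PSMC1, PSMC5 and PSMC6 had log2 fold changes of 0.08, -0.01 and -0.08.

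The non-ATPase subunits of the cap build its base and its lid and include the ubiquitin receptors and the deubiquitinase. Counted in this class by name are also PSMD5, PSMD9 and PSMD10, chaperones of cap assembly. The summed level of the class was 1461, 1602 and 1721 CPM in morphant libraries, against 1429, 1652 and 1669 CPM in wildtype libraries. The median log2 fold change was -0.04 over 13 genes (5 above 0 and 8 below). The gene psmd4b, a copy of PSMD4, which in mammals and yeast binds ubiquitin chains, was the 1 proteasome gene with every morphant library above every wildtype library. It had 79.2, 77.4 and 94.1 CPM in morphant libraries, against 54.9, 66.9 and 69.8 CPM in wildtype libraries, or 83.6 ± 9.18 CPM and 63.9 ± 7.94 CPM (SD, n = 3 each). The log2 fold change was 0.34 (SE 0.29, adjusted p in edgeR = 0.551), 0.38 within the mRNA-Seq and 0.24 within the TruSeq libraries. Such a separation upward was seen in 1 of 43 proteasome genes, against 7.76% of all genes. With library totals alone its log2 fold change was 0.74 at an unadjusted edgeR p of 0.0449, where 18.7% of all genes were under 0.05 (adjusted p = 0.264, and 0.264 to 1.00 over its alternatives).

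The 2 genes named PSMD11, which encode a lid subunit, were lower in morphant replicate 1 than in any other library. PSMD11 (ENSDARG00000005134) had 95.5, 148 and 122 CPM in morphant libraries, against 154, 162 and 136 CPM in wildtype libraries (log2 fold change -0.37, SE 0.33). PSMD11 (ENSDARG00000060150) had 75.9, 129 and 92.7 CPM in morphants and 94.7, 116 and 117 CPM in wildtype (log2 fold change -0.28, SE 0.32). Morphant replicate 2 lay above wildtype replicate 3 alone in the former and above every wildtype library in the latter. The groups thus overlapped in both genes. Within the mRNA-Seq libraries their log2 fold changes were -0.73 and -0.48, and within the TruSeq libraries -0.06 and -0.13. PSMD10, known as gankyrin, a chaperone of cap assembly, was low, at 11.6, 7.54 and 4.53 CPM in morphants and 6.82, 9.82 and 4.23 CPM in wildtype (log2 fold change 0.50, SE 0.43). Its libraries spread widely in both groups and overlapped. PSMD14, the deubiquitinase of the lid, had 94.2, 82.9 and 97.6 CPM in morphants and 84.1, 103 and 94.8 CPM in wildtype (log2 fold change -0.03), and PSMD1, the large scaffold of the base, had 285, 264 and 302 CPM in morphants and 284, 291 and 296 CPM in wildtype (log2 fold change -0.04). PSMD1 varied least of these between libraries. The other 7 genes, PSMD3, PSMD5, PSMD6, PSMD8, PSMD9, PSMD12 and PSMD13, had log2 fold changes between -0.19 and 0.25.

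The regulators, which bind the core in place of the cap, inhibit it or help to assemble it, were lower in sum in every morphant library. Their summed level was 246, 289.9 and 264 CPM in morphant libraries, against 349, 331 and 298 CPM in wildtype libraries, or 267 ± 21.9 CPM in morphants and 326 ± 25.6 CPM in wildtype (SD, n = 3 each). With library totals alone the sums were 315, 266 and 302 CPM in morphant libraries, against 347, 297 and 245 CPM in wildtype libraries, and overlapped. Of the 7 genes PSME4 differed most in CPM, and it encodes a large single-chain activator that caps the core. PSME4 had 92.9, 149 and 119 CPM in morphant libraries, against 226, 171 and 154 CPM in wildtype libraries, so every morphant library was below every wildtype library, with wildtype replicate 1 far above the rest. Its mean was 120.5 ± 28.2 CPM in morphants and 184 ± 37.6 CPM in wildtype. The other 6 regulators summed to 153, 141 and 145 CPM in morphant libraries, against 123, 159.7 and 144 CPM in wildtype libraries, and overlapped. Their mean was 146 ± 6.52 CPM in morphants and 142 ± 18.7 CPM in wildtype. The log2 fold change of PSME4 was -0.65 (SE 0.37, 95% interval -1.52 to 0.22, adjusted p in edgeR = 0.417). It was -1.10 within the mRNA-Seq libraries and -0.25 within the TruSeq libraries, and -0.27 with library totals alone, under which the groups overlapped. Without morphant replicate 2 it was -0.82 at an unadjusted edgeR p of 0.0312, in a fit where 37.1% of all genes were under 0.05. The adjusted p of PSME4 was 0.0991 there, and 0.0991 to 1.00 over the alternatives with more than 1 library in each group. The value of 0.0589 comes from the mRNA-Seq libraries, where 1 morphant library was assumed to vary like the others and 34.9% of all genes had an unadjusted p under 0.05.

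PSME1 and PSME2 encode the partner subunits of the interferon-inducible ring activator. PSME1 was barely detected, with 6, 19 and 6 counts in morphants and 14, 15 and 17 in wildtype, that is 0.373, 0.547 and 0.313 CPM in morphant libraries, against 0.919, 0.792 and 1.09 CPM in wildtype libraries. Every morphant library was below every wildtype library, and the log2 fold change of -1.25 (SE 0.56, 95% interval -2.56 to 0.06) was the largest in size among the 43 genes. It did not pass the test (adjusted p in edgeR = 0.393). Its partner PSME2 was higher in level and overlapped between groups, at 16.6, 9.0 and 7.97 CPM in morphants and 12.7, 16.5 and 8.33 CPM in wildtype (log2 fold change 0.11, SE 0.36). PSME3, the nuclear member of the same activator family, had 88.7, 70.1 and 89.7 CPM in morphants and 65.0, 79.0 and 67.9 CPM in wildtype (log2 fold change 0.27, SE 0.30). Morphant replicates 1 and 3 were above all wildtype libraries in PSME3 and replicate 2 was not. PSMG1, an assembly chaperone of the alpha ring, had 26.4, 37.4 and 25.4 CPM in morphants and 26.8, 36.9 and 43.1 CPM in wildtype (log2 fold change -0.36, SE 0.34). PSMG2, its partner, had a log2 fold change of -0.16, and PSMF1, an inhibitor of the core, one of 0.14. In all, 2 of 43 proteasome genes, PSME1 and PSME4, were lower in every morphant library, against 5.78% of all genes. With library totals alone these counts were 1 lower (PSME1, against 3.30% of all genes) and 6 higher (PSMB3, PSMC2, psmc1b, psmd4b, PSMD6 and PSMD12, against 11.6%).

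Levels between genes can be compared per length, in the RPKM values deposited by the authors, given here as mean ± SD over the 6 libraries. The order rests on the length taken for each gene, which was not checked here. PSMA8 was the highest, at 219 ± 30.3 RPKM, and ranked first in 5 of 6 libraries. PSMB1 (192 ± 30.4), PSMB5 (177 ± 18.1) and PSMB3 (161 ± 26.7) followed, and each lay within the spread of its neighbours in this order. The lowest tested cap and core genes were PSMD5 (4.48 ± 0.832), PSMD10 (5.69 ± 2.26) and PSMB10 (7.42 ± 2.83). PSMD5, PSMD9 and PSMD10, each a chaperone of cap assembly and absent from the finished particle, were the 3 lowest genes of the cap. The assembly chaperones of the core, PSMG1 (16.5 ± 3.87) and PSMG2 (14.1 ± 2.76), were also below every tested constitutive core subunit. Of the activators PSME3 led with 45.9 ± 6.91 RPKM, ahead of PSME4 (19.4 ± 5.50), PSME2 (6.84 ± 2.36) and PSME1 (0.449 ± 0.195), which ranked last in 6 of 6 libraries. The order was much the same in each library: Spearman's rho of RPKM over the 43 genes was 0.944 to 0.993 between any 2 libraries. This is a description across genes, which are not independent replicates and share their gene lengths.

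**Figure D3:**
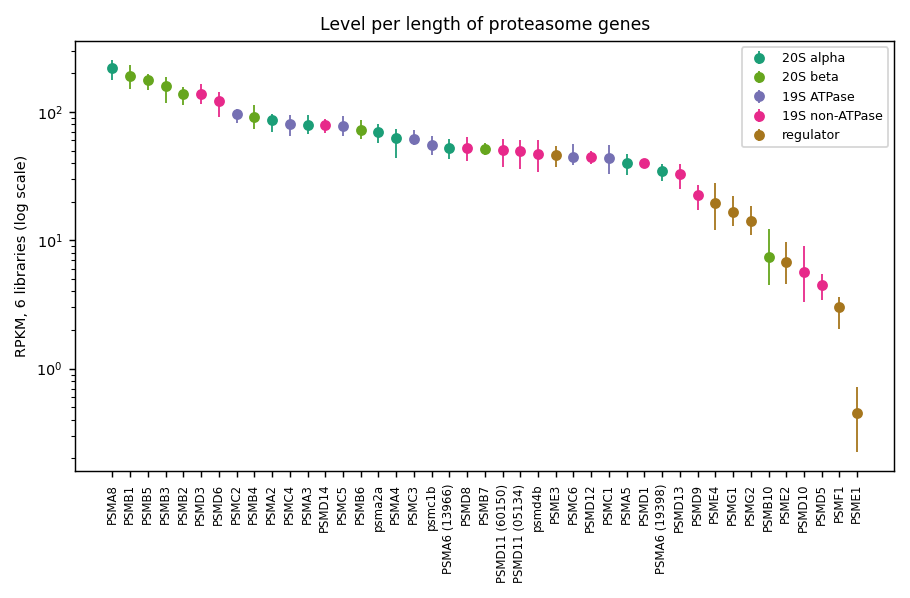
The RPKM deposited by the authors is plotted for the 43 tested proteasome genes on a log axis, ordered by level, with the mean over the 6 libraries as a point and a bar from the lowest to the highest library; colours mark the class. PSMA8 heads the order at 219 RPKM and PSME1 ends it at 0.449 RPKM. Most core and cap genes lie within the range of 32.6 to 219 RPKM, with the assembly chaperones and immune forms below.

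Subunits that occupy equal numbers of places in the particle did not have equal levels in the deposited RPKM. These values rest on the length taken for each gene, which was not checked here. PSMB5 and PSMB7 had 238 and 240 CPM in morphants and 235 and 239 CPM in wildtype, but 177 and 51.6 RPKM over the 6 libraries. Among the alpha subunits, genes for the same position were added, and the position of PSMA1 is missing. The position of PSMA8 had 215 ± 25.9 RPKM in morphants and 223 ± 39.6 RPKM in wildtype (SD, n = 3 each, also below). That of PSMA2 and psma2a had 156 ± 6.70 RPKM in morphants and 157 ± 25.7 RPKM in wildtype. That of the PSMA6 genes with psma6l had 89.7 ± 15.3 RPKM in morphants and 85.7 ± 9.89 RPKM in wildtype. PSMA3 had 79.2 ± 11.8 RPKM in morphants and 78.9 ± 14.4 RPKM in wildtype, PSMA4 67.1 ± 7.67 RPKM in morphants and 57.6 ± 12.1 RPKM in wildtype, and PSMA5 41.2 ± 7.79 RPKM in morphants and 39.5 ± 6.36 RPKM in wildtype. Among the ATPases the range was narrower, with the sum of PSMC1 and psmc1b highest at 104 ± 14.4 RPKM in morphants and 93.4 ± 12.7 RPKM in wildtype, and PSMC6 lowest at 43.2 ± 3.84 RPKM in morphants and 46.7 ± 8.34 RPKM in wildtype. Morphant and wildtype means differed by less than the SD of either group at each of these positions except that of PSMA4, where the difference was below the wildtype SD alone. The same exception held for PSMC3 and PSMC4, whose means are not given here.

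Paralogous pairs stood in similar proportions in both groups. The RPKM ratio of PSMA2 to psma2a was 1.26 ± 0.187 in morphants and 1.25 ± 0.0751 in wildtype, that of PSMC1 to psmc1b was 0.793 ± 0.0455 in morphants and 0.788 ± 0.0732 in wildtype, and that of PSMA6 (ENSDARG00000019398) to PSMA6 (ENSDARG00000013966) was 0.670 ± 0.0323 in morphants and 0.645 ± 0.0453 in wildtype (SD, n = 3 each). The ratio of PSMD11 (ENSDARG00000005134) to PSMD11 (ENSDARG00000060150) was 0.941 ± 0.0630 in morphants and 1.06 ± 0.177 in wildtype. Reads shared by such close copies may have been split or dropped in counting, by a tool not named in the sources, and their single values are uncertain to that degree.

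The spread of the proteasome genes over libraries can be set beside other multi-subunit machines and markers measured in the same libraries. Over the 6 libraries the highest summed proteasome level was 1.23 times the lowest with TMM factors and 1.47 times with library totals alone, added after seeing the data. With TMM factors the ratio was 1.28 for 8 genes of the COP9 signalosome, a complex related to the lid, 1.45 for 12 of the translation factor eIF3, also related to it, and 1.52 for 7 of the CCT chaperonin. It was 1.61 for 73 genes with a ribosomal protein name, 7.14 for 10 chaperones of the endoplasmic reticulum and 12.9 for 7 leukocyte markers. Scaled by library totals alone, it was 1.64 for the COP9 signalosome, 1.19 for eIF3, 1.43 for the CCT chaperonin, 1.17 for the ribosomal genes, 4.58 for the endoplasmic reticulum chaperones and 8.28 for the leukocyte markers. Gene by gene, the SD of log2(CPM + 1) with TMM factors over the 6 libraries had a median of 0.198 for the proteasome and 0.488 for all genes tested. On that scale the proteasome genes were not evenly spread over libraries. Morphant replicate 3 was the highest library for 21 of the 43 genes, against 19.4% of all genes, and wildtype replicate 1 the lowest for 20 of the 43, against 12.9%. Whether library quality has a part in this was not tested.

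**Figure D4:**
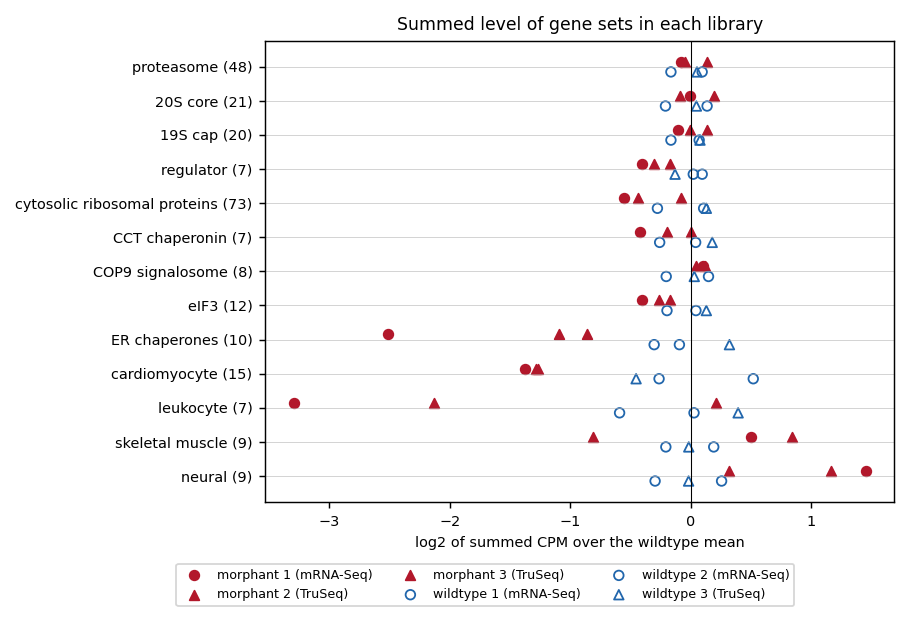
The summed TMM-scaled CPM of each gene set is plotted per library as log2 of its ratio to the wildtype mean (filled, Gata4 morphant; open, wildtype; circles, mRNA-Seq kit; triangles, TruSeq kit; number of genes in brackets). Proteasome, core and cap sums span 0.30, 0.40 and 0.30 log2 units with both groups intermixed, while leukocyte, cardiomyocyte and endoplasmic reticulum chaperone genes span 3.69, 1.90 and 2.84.

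Genes that act with the proteasome were drawn into 4 lists, in which no gene had an adjusted p under 0.05 in edgeR with all 6 libraries. Without morphant replicate 2, where 19.7% of all genes passed, 2 genes of the shuttle list (FAF2 and DDI2) and 2 of the list of transcription regulators (NFE2L2 and nfe2l2b) had an adjusted p under 0.05 in edgeR, each lower in morphants. Proteins that bind or assemble it without carrying its name, such as the ubiquitin receptor ADRM1, the deubiquitinase USP14 and the chaperone POMP, had small differences (of 8 genes tested, 2 had a log2 fold change above 0 and 6 below, with a median of -0.06, or 0.33 with library totals alone). AKIRIN2, which in human cells carries proteasomes into the nucleus, had 82.3, 172 and 140.2 CPM in morphants and 131, 148 and 163 CPM in wildtype (log2 fold change -0.41, SE 0.33). TXNL1, a thioredoxin bound to the cap, and ECPAS, an adaptor that joins cap and core, had log2 fold changes of -0.32 and -0.30. Ubiquitin genes and the activating enzymes were lower at the median (of 6 genes tested, 1 had a log2 fold change above 0 and 5 below, with a median of -0.35, or 0.04 with library totals alone). Of these, rps27a, which encodes ubiquitin fused to a ribosomal protein, had 872, 1042 and 811 CPM in morphant libraries, against 1087, 1448 and 1205 CPM in wildtype libraries (log2 fold change -0.46, SE 0.30). It was lower in every morphant library with TMM factors. UBB (ENSDARG00000002369), a polyubiquitin gene, had a log2 fold change of -0.40 with overlapping groups.

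Factors that bring ubiquitin-tagged proteins to the proteasome, the shuttle proteins and the p97 ATPase VCP with its cofactors, were also mostly lower with TMM factors (of 9 genes tested, 1 had a log2 fold change above 0 and 8 below, with a median of -0.26, or 0.14 with library totals alone). FAF2, a p97 cofactor of the endoplasmic reticulum, had 50.1, 122 and 75.6 CPM in morphants and 104, 119 and 125 CPM in wildtype (log2 fold change -0.75, SE 0.38). DDI2, a protease that in human cells activates NFE2L1, had 135, 297 and 144 CPM in morphants and 254, 251 and 289 CPM in wildtype (log2 fold change -0.65, SE 0.39). In both genes morphant replicate 2 lay at the level of the wildtype libraries and the other morphants below them. The shuttle gene rad23ab, at 9.63, 3.88 and 15.6 CPM in morphants and 6.17, 4.86 and 3.91 CPM in wildtype, went the other way (log2 fold change 1.06, SE 0.63), with overlapping groups.

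Regulators of proteasome gene transcription had the lowest median of the 4 lists (of 10 genes tested, 3 had a log2 fold change above 0 and 7 below, with a median of -0.71, or -0.38 with library totals alone). NFE2L2, the oxidative stress factor that also activates proteasome genes in mammals, had 24.8, 141 and 37.4 CPM in morphant libraries, against 139, 155 and 209.8 CPM in wildtype libraries. Morphant replicates 1 and 3 were far below the wildtype range and morphant replicate 2 within it, at a log2 fold change of -1.90 (SE 0.63, adjusted p in edgeR = 0.393). Its small Maf partner gene maff had 39.0, 159 and 148 CPM in morphant libraries, against 178, 149 and 209 CPM in wildtype libraries (log2 fold change -1.25, SE 0.47, adjusted p = 0.393). These were the 2 of 10 genes at an unadjusted p under 0.05, against 12.5% of all genes. The paralogue nfe2l2b had 0.808, 60.4 and 3.91 CPM in morphants and 12.8, 2.06 and 157 CPM in wildtype with a wide spread in both groups (log2 fold change -2.68, SE 1.15). Of the NFE2L1 copies, nfe2l1b had a log2 fold change of -0.81 (SE 0.50) and NFE2L1 one of 0.86 (SE 0.91). The related nfe2l3, picked out after its values were seen, was higher in every morphant library with TMM factors, at 132, 96.0 and 91.9 CPM in morphants and 73.0, 62.8 and 77.2 CPM in wildtype (log2 fold change 0.62, SE 0.30, adjusted p = 0.394). The order of libraries in NFE2L2 was that of the leukocyte sums given above, except that morphant replicate 2 and wildtype replicate 2 changed places, and the part of leukocytes in its values was not tested.

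Other machines gave varied medians beside the same all-gene median of 0.07 and the median of -0.29 over genes of 40 to 310 CPM. In the CCT chaperonin, of 7 genes tested, 0 had a log2 fold change above 0 and 7 below, with a median of -0.28, or 0.11 with library totals alone. In eIF3, of 11 genes tested, 1 had a log2 fold change above 0 and 10 below, with a median of -0.30, or 0.09 with library totals alone. In the COP9 signalosome, of 8 genes tested, 5 had a log2 fold change above 0 and 3 below, with a median of 0.08, or 0.47 with library totals alone. Of 72 tested genes picked by a ribosomal protein name, 1 had a log2 fold change above 0 (RPL7L1, 0.25) and 71 below. The median was -0.42, or -0.03 with library totals alone. With TMM factors 20 of the 72 were lower in every morphant library, against 5.78% of all genes. The name rule also took in rps19bp1, and rps27a is in the ubiquitin list as well. The endoplasmic reticulum chaperones stood furthest off: of 10 genes tested, 0 had a log2 fold change above 0 and 10 below, with a median of -1.55, or -1.16 with library totals alone. All 10 were at an unadjusted p under 0.05 and lower in every morphant library with TMM factors, against 12.5% and 5.78% of all genes, each with an adjusted p of 0.393 in edgeR. Without morphant replicate 2, all 10 passed an adjusted p of 0.05 in edgeR, as did 19.7% of all genes. PDIA4, a disulfide isomerase with the smallest p of that list, had 235, 489 and 707 CPM in morphant libraries, against 1004, 1292 and 1766 CPM in wildtype libraries (log2 fold change -1.93, SE 0.36, adjusted p = 0.393). The difference between these lists and the proteasome was not tested.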

How the data were processed

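Cells sorted for the tg(myl7::gfp) reporter gave total RNA for 3 Gata4 morphant and 3 wildtype libraries, grouped by the label for experimental group. Replicates carry numbers in deposit order, which imply no pairing. The kit of each library comes from the labels' extract protocol. The members, gene lists and tests were chosen with earlier results of these data known.

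Raw counts for each Ensembl gene, not normalized, were deposited by the authors, per the file headers. Within a gene, RPKM deposited by the authors scaled with the count plus 1, and its scale between libraries was not that of the library totals. The authors' base means (a signal per group) and their fold (ratio) values, also deposited, were not used. Of the authors' p-values, raw and adjusted, only the number of calls and the smallest adjusted value among members were looked at. BWA, CASAVA 1.7.0, the build Zv9 and DESeq appear in the submitters' processing notes without a role. Neither the counter nor its strand setting is given in the sources used here, and reads of close paralogues or overlapping genes may have been split. No sequence tables or genome of that build were used.

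Symbols matched 19189 of 27456 identifiers (69.9%). The test was the quasi-likelihood F test of edgeR 4.0.16 (R 4.3.3), two-sided, with TMM scaling, the filterByExpr filter, a kit and a group term, Benjamini-Hochberg adjustment over 18033 genes, 3 residual degrees of freedom and a prior count of 0.125. DESeq2 1.42.0 and limma-voom (limma 3.58.1) were alternatives, beside other scalings, no filter, no kit term, each kit alone and each library left out. The 9 companion and 8 marker lists are described by counts and medians, with no set test. Libraries of a group differed by more than sampling noise (chi-square per gene 109 to 401 between morphants and 55.9 to 88.4 between wildtype libraries). The fit was tested on simulated data without a kit effect and with a lower dispersion than the 0.22 estimated here. That test therefore does not show the power of the fit in these data.

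Values in every library were given by rule for the 4 genes with the smallest p in each class, the catalytic and immune beta subunits, PSME1 and PSME2, and up to 3 genes of each companion list, of which a selection is described. 1 gene of a companion list is not reported here by name, though the list's counts include it. PSMD1, PSMD14 and nfe2l3 were added after their values were seen. Intervals on sums of counts are exact Poisson intervals at 95%, and an upper limit for 0 counts is 3 counts of the total.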

Additional observations from a re-analysis of the deposited data

How the results depend on the processing

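No paired analysis was possible because the labels give no replicate numbers. Under every alternative listed above, 0 proteasome genes had an adjusted p under 0.05. In most of these fits no gene of any kind passed, so the count of 0 says little there. Among fits with more than 1 library in each group, the exceptions were DESeq2, no filter and leaving out morphant replicate 2. These called 281 of 18033, 44 of 27456 and 3745 of 19034 genes. The fit within the mRNA-Seq libraries assumed that 1 morphant library varied like the others. The 24 named genes with a fit gave 336 values under alternatives, of which 52 had the opposite sign. With library totals alone, the medians were 0.44 for the core, 0.36 for the cap and 0.23 for the regulators, against an all-gene median of 0.46. In that setting 1 gene had an unadjusted p under 0.05 in edgeR (psmd4b), against 18.7% of all genes. Groups did not overlap in 7 genes, 1 lower and 6 higher in morphants, against 3.30% and 11.6% of all genes. With TMM factors this held for 3 genes, 2 lower and 1 higher, against 5.78% and 7.76% of all genes. The highest summed proteasome level was 1.47 times the lowest with library totals alone. These comparisons were added after seeing the data. Within the mRNA-Seq libraries 1 gene had an unadjusted p under 0.05 (PSME4), against 34.9% of all genes. Leaving out each library in turn gave 0 to 1 such genes (PSME4, without morphant replicate 2, against 37.1% of all genes in that fit). Core medians were then -0.16 to 0.088, cap medians -0.19 to -0.0038 and regulator medians -0.38 to -0.010. The lowest core and cap values were without wildtype replicate 1.

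Directions near 0 turned as follows. With library totals alone the log2 fold change was 0.26 for PSMA8, 0.36 for PSMB2, 0.19 for PSMC3, 0.29 for PSMC2, 0.38 for PSMB7 and 0.38 for PSMB5. It was 0.012 for PSMD11 (ENSDARG00000005134), 0.10 for PSMD11 (ENSDARG00000060150) and 0.015 for PSMG1. PSMB6 was at -0.048 with RLE scaling, -0.022 with no filter, -0.030 without the kit term, -0.048 in DESeq2 and -0.040 within TruSeq. Without the kit term PSME2 was at -0.16, PSMB7 at 0.0098 and PSMB5 at 0.023. Within TruSeq PSMA4 was at -0.046, PSMA6 (ENSDARG00000019398) at -0.024, PSMA6 (ENSDARG00000013966) at -0.031, PSMB10 at -0.75, PSME2 at -0.022 and PSMB7 at 0.055. Leaving out 1 library gave ranges of -0.048 to 0.30 for PSMA4, -0.085 to 0.16 for PSMA6 (ENSDARG00000019398), -0.067 to 0.15 for PSMA6 (ENSDARG00000013966), -0.76 to 0.94 for PSMB10 and -0.18 to 0.085 for PSMB6. The ranges were -0.085 to 0.16 for PSME2, -0.18 to 0.053 for PSMB7, -0.087 to 0.18 for PSMB1, -0.095 to 0.11 for PSMB4, -0.057 to 0.15 for PSMC4, -0.047 to 0.13 for psmc1b, -0.23 to 0.020 for PSMB2 and -0.18 to 0.031 for PSMB5. The cause was not tested. The order by RPKM recomputed from TMM-scaled totals differed in PSMA5 and PSMD1, which changed places. Adding PSMC3IP to the cap or PSME3IP1 to the regulators, after seeing the data, moved neither median past its spread between replicates. Depth limits PSME1, PSMB8, PSMB9, psmb12 and psmb13a, whose libraries held few counts.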
